A study of Mus musculus with 6 samples.

Results

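The monocytes, macrophages and dendritic cells of 1 mouse given 2FF plus anti-PD-L1 were compared with those of 1 mouse given anti-PD-L1 alone. These mononuclear myeloid cells were chosen by single-cell RNA counts. A cell was taken when it had at least 250 detected genes and no more than 5% of its UMIs (unique molecular identifiers, which mark single captured RNA molecules) from mitochondrial genes. It also had no UMI of the T cell genes Cd3d, Cd3e and Cd3g, of the B cell gene Cd79a, of the NK cell gene Ncr1 or of the neutrophil gene Csf3r, and at least 3 UMIs summed over Lyz2, Csf1r and Flt3. This gave 4048 cells, 1886 from the combination library and 2162 from the anti-PD-L1 library, among 16607 cells of the pair that passed the limits and 57078 barcodes of all 6 libraries.

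The study implanted KPCA mouse ovarian cancer cells into the ovarian bursa of female C57BL/6 mice aged 6 to 8 weeks, whereas the tissue in the sample labels is lymph node and the design text speaks of young and aged mice. In the combination group the tumor cells had been kept in 2FF (2F-Peracetyl-Fucose in the labels, 2-fluoro-L-fucose in the methods) for 3 days before injection, and the mouse then received 2FF by mouth every 2 days. Both mice compared here received anti-PD-L1 antibody at 5 mg/kg into the peritoneum, 2 times a week for 3 weeks from day 9, and mice were killed on day 30. The other 4 libraries, control, 2DG (2-deoxy-D-glucose), 2FF alone and 2DG plus anti-PD-L1, also came from 1 mouse each and are given to show how far mice differed. With 1 library in each group there is no replicate check, and every interval below covers counting error only. Tumor cells and host were both exposed to 2FF, so that their parts cannot be told apart.

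Fucose is a sugar that fucosyltransferases place on the glycans of cell surface proteins, and 2FF is a fucose analog that cells take up and that blocks the making of the donor, GDP-fucose. PD-L1, encoded by Cd274, is displayed by tumor and myeloid cells and restrains T cells through PD-1. Monocytes enter tumors from blood and mature into macrophages, which take up debris and can restrain or recruit other immune cells, while dendritic cells carry antigen to T cells. Interferons switch on a shared set of antiviral genes in all of these cells, and interferon-gamma in addition raises antigen presentation.

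Depth was similar in the 6 libraries, with 61859753 to 73885214 UMIs each. The median mononuclear myeloid cell held 7116 UMIs with anti-PD-L1 and 8754 with the combination, so that a threshold in UMIs was easier to reach in the combination library. The pair of libraries shared 16 barcodes, and any 2 of the 6 libraries shared at most 34. The control library stood apart, with 2244 cells passing a neutrophil gate against 129 to 228 elsewhere, and 398 T cells against 1849 to 2895.

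Cells were placed in classes by UMIs of marker genes, C1qa, C1qb and C1qc for macrophages, Ly6c2, Ccr2 and Plac8 or Ace, Treml4 and Cd300ld for monocytes, and separate gates for 4 kinds of dendritic cell. Some genes outside the gates were read in the class they are known for and in another class. Apoe, the lipid carrier of macrophages, stood at 3568 CPM (UMIs per 1000000 UMIs of the class) in macrophages and 57.7 CPM in dendritic cells of the anti-PD-L1 library. Vcan, a proteoglycan gene of young monocytes, stood at 226 CPM in monocytes and 69.9 CPM in macrophages of that library. Cst3, a protease inhibitor abundant in dendritic cells, stood at 8597 CPM in dendritic cells and 1186 CPM in monocytes. Each of these genes, picked from a longer set of markers, was therefore several times higher in the class it is known for than in the other class given. Other pairs of classes were less distinct. With anti-PD-L1, Apoe was detected in 86.6% of macrophages and 69.7% of monocytes. Mgl2, listed as a marker of type 2 dendritic cells, was detected in 28% of macrophages and 24.2% of all dendritic cells. Summed markers of T cells came to 47.6 CPM in monocytes with anti-PD-L1 and 24.5 CPM with the combination, those of B cells to 73.6 and 35.3 CPM, and those of NK cells to 33.2 and 8.26 CPM. Neutrophil markers came to 2058 and 1601 CPM in monocytes, and to 25.6 and 19.4 CPM in macrophages. The markers of other cells were thus mostly lower in the combination library, with Cd3d, Cd3e, Cd3g, Cd79a and Ncr1 at 0 by the rule, and their part in the values below was not tested. Markers of lymph node stroma summed to at most 10.3 CPM in the classes of the pair.

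Mononuclear myeloid cells made up a similar share of both libraries, 24.6% with anti-PD-L1 and 24.2% with the combination. Macrophages were 29.2% of them with anti-PD-L1 (95% interval 27.3 to 31.2, exact Clopper-Pearson) and 35.9% with the combination (33.7 to 38.1). The share was 31.4% in control, 37% in 2DG, 40.8% in 2FF and 34.7% in 2DG plus anti-PD-L1, so that the anti-PD-L1 library was the lowest of the 6 and the combination lay inside the range of the others. Cells were also thinned to 2000 UMIs and then gated anew. That left out shallower cells, 106 and 90 of those above, but let in others that passed the gates on their fewer UMIs, so that 2284 cells with anti-PD-L1 and 1762 with the combination made up a different population. In it the macrophage shares were 23.3% (21.6 to 25.1) and 25.1% (23.1 to 27.2), and the intervals overlapped. Monocytes were 49.4% with anti-PD-L1 and 48.3% with the combination, or 47% and 54.8% after thinning. Dendritic cells were 11.1% and 9.38%, and 10.3% and 6.42% had no class.

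Within the macrophages, a subset was gated by at least 5 UMIs summed over Spp1, Gpnmb and Arg1, and more than over Folr2, Lyve1 and Selenop. Cells of this subset, whose genes mark lipid-loaded and arginine-consuming tumor macrophages, were more frequent with the combination. They made up 68.4% (64.6 to 72) of macrophages with anti-PD-L1 and 79.6% (76.4 to 82.6) with the combination, and 41.5% and 57.2% after thinning. The other libraries stood at 69.6% in control, 73.5% in 2DG, 80% in 2FF and 67.3% in 2DG plus anti-PD-L1, and 2FF, at 62.4%, was also above the combination after thinning. Non-classical monocytes, the patrolling cells that express Ace, Treml4 and Cd300ld, were 22.4% of monocytes with anti-PD-L1 and 18.8% with the combination, or 9.41% and 5.91% after thinning. Among dendritic cells the numbers were small, with 39 and 28 type 1 cells, 117 and 87 type 2 cells, 75 and 51 mature cells and 9 and 11 plasmacytoid cells, anti-PD-L1 first.

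**Figure D1:**
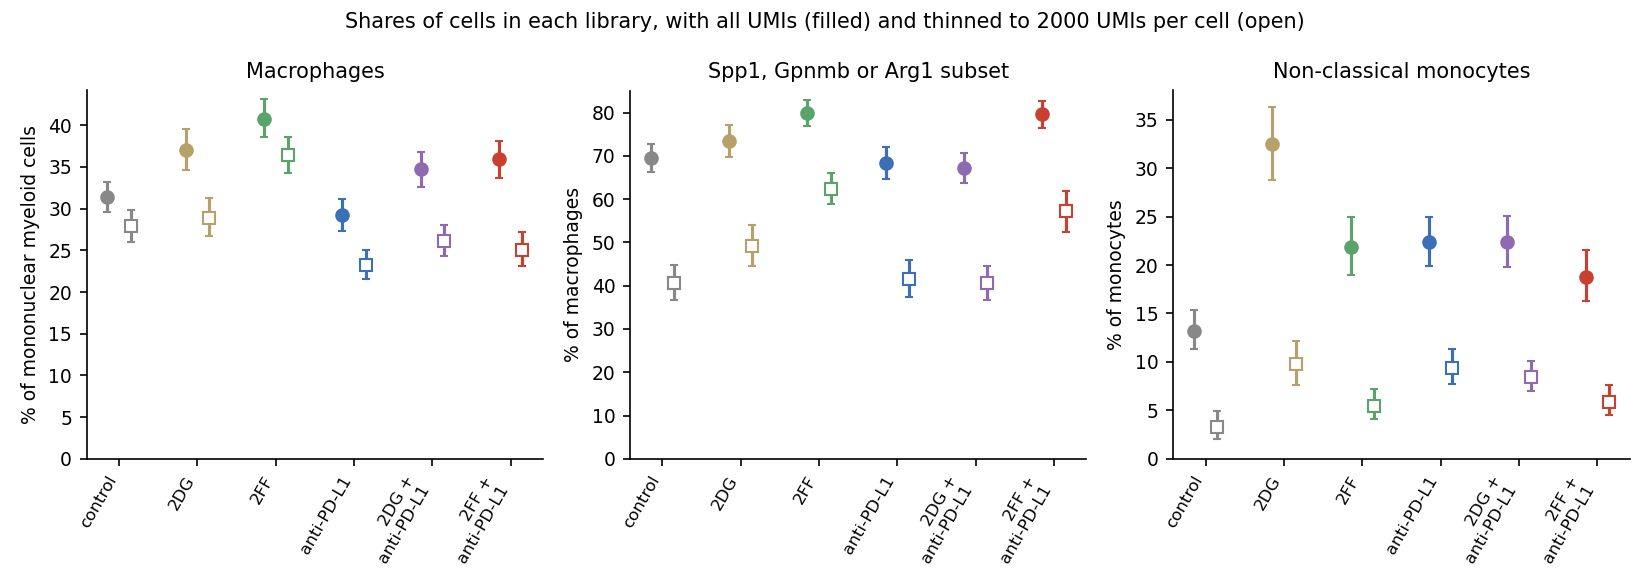
The panels show shares of cells for each of the 6 libraries on the horizontal axis. They give macrophages as percent of mononuclear myeloid cells and the Spp1, Gpnmb or Arg1 subset as percent of macrophages. The last panel gives non-classical monocytes as percent of monocytes. Filled points stand for all UMIs, open points for cells thinned to 2000 UMIs and bars for exact 95% counting intervals. The Spp1, Gpnmb or Arg1 share is 68.4% with anti-PD-L1 and 79.6% with the combination, and 41.5% and 57.2% after thinning.

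Counts were summed over the cells of a class, and the difference between libraries is the log2 ratio of CPM + 5, combination over anti-PD-L1. A gene is called past the fold at a log2 ratio of 1 or more, or -1 or less. Few genes were. In monocytes 51 of 9812 genes with at least 50 UMIs were past the fold and higher (0.52%), and 28 were lower (0.285%). In macrophages the numbers were 43 (0.431%) and 26 (0.261%) of 9980 genes, and in dendritic cells, with the fewest cells, 57 (0.717%) and 88 (1.11%) of 7947 genes. The median ratio over all genes was -0.08 in monocytes, -0.06 in macrophages and -0.03 in dendritic cells. The counts and their balance depended on the CPM added, with 87 higher and 107 lower in monocytes at 1 CPM. In dendritic cells 13 were higher and 4 lower when cells were thinned before the gates, which left only 33 dendritic cells with anti-PD-L1 and 21 with the combination. Either library of the pair could be the extreme one of the 6, in genes chosen here for a ratio between both. Of the genes past the fold and higher, the combination was above all 5 other libraries for 24 of 51 in monocytes, 19 of 43 in macrophages and 34 of 57 in dendritic cells, and anti-PD-L1 was below all 5 for 19, 27 and 22. Of those lower, the combination was below all 5 for 8 of 28, 13 of 26 and 45 of 88, and anti-PD-L1 above all 5 for 20, 19 and 31. Over all genes, anti-PD-L1 was the lowest library for 9.22%, 11.7% and 11.3% and the highest for 18.9%, 24.4% and 16% in the 3 classes. Across genes, the ratio correlated with that of 2FF over control, which uses 2 further libraries, at Pearson's r = -0.12 in monocytes, 0.03 in macrophages and 0.22 in dendritic cells, as a description across 9812, 9980 and 7947 genes.

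Interferon-stimulated genes were higher with the combination in monocytes. All 28 of the 28 list members present had a ratio above 0, 5 were past the fold (against 0.52% of all genes), and the median ratio was 0.557. The combination library was the highest of the 6 for 24 of the 28, against 8.91% of all 9812 genes in monocytes, and the anti-PD-L1 library was the lowest for none. The 5 members past the fold were Isg15, a ubiquitin-like modifier, Ifit1 and Ifit2, which bind viral RNA, Rsad2, which makes a chain-terminating nucleotide, and Oasl1, of the oligoadenylate synthetase family.

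Isg15 (chr4:156199424-156200818, minus strand, GRCm38) stood in monocytes at 156 CPM in control, 168 in 2DG, 344 in 2FF, 235 in anti-PD-L1, 411 in 2DG plus anti-PD-L1 and 516 in the combination. The combination was the highest library, the next was 2DG plus anti-PD-L1, and control and 2DG were the lowest. The log2 ratio was 1.12, and the ratio with no CPM added had a counting interval of 1.05 to 1.22 on the log2 scale. Isg15 was detected in 39.5% of monocytes with anti-PD-L1 and 62.6% with the combination, or 22.1% and 39.3% at an equal 2000 UMIs. In B cells of the same libraries, a guide to free RNA, the shares were 2.01% and 4.92%.

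Ifit1 (chr19:34640871-34650009, plus strand) stood in monocytes at 21.6 CPM in control, 31.5 in 2DG, 39 in 2FF, 38.1 in anti-PD-L1, 69.5 in 2DG plus anti-PD-L1 and 139 in the combination, and rested on 279 UMIs in 94 cells with anti-PD-L1 and 1075 UMIs in 213 cells with the combination. Its log2 ratio of 1.74 was the highest of the list. Ifit2 stood at 37.6 CPM in control, 66.3 in 2DG, 95.3 in 2FF, 109.5 in anti-PD-L1, 160.1 in 2DG plus anti-PD-L1 and 258 in the combination. Rsad2 stood at 118 CPM in control, 83 in 2DG, 135 in 2FF, 219 in anti-PD-L1, 277 in 2DG plus anti-PD-L1 and 479.6 in the combination. Oasl1 stood at 63.3 CPM in control, 90.3 in 2DG, 129 in 2FF, 109.7 in anti-PD-L1, 163 in 2DG plus anti-PD-L1 and 257 in the combination. For each of these 4 genes the combination library was again the highest of the 6.

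**Figure D2:**
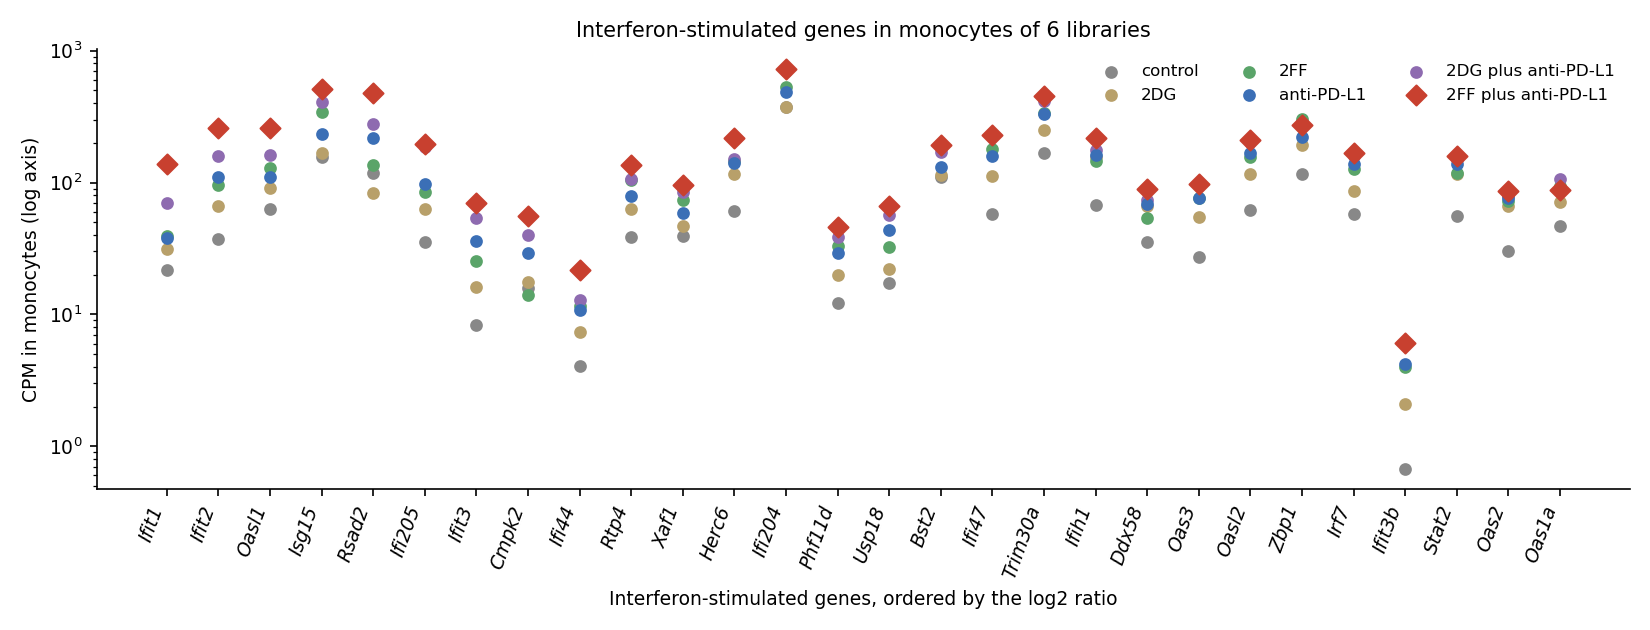
Each column is 1 of the 28 interferon-stimulated genes, ordered by the log2 ratio, and the vertical log axis gives its CPM in monocytes, with 1 point for each of the 6 libraries and a diamond for 2FF plus anti-PD-L1. The diamond is the highest point for 24 of the 28 genes, and for Isg15 it lies at 516 CPM against 235 CPM for anti-PD-L1.

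Per cell, the list was higher both in the middle and at the top of the distribution. In monocytes thinned to 2000 UMIs, the summed UMIs of the list had a median of 4 per cell with anti-PD-L1 and 7 with the combination, and the 90th percentiles were 15 and 27. Cells with none of the list's UMIs were 5.85% with anti-PD-L1 and 2.99% with the combination. In classical monocytes the median log2 ratio of the list was 0.58, with 24 of 28 members highest in the combination (9.54% of all genes there). In non-classical monocytes it was 0.227, with 4 of 22 members highest in the combination (10.7% of all genes).

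In macrophages 25 of 27 members had a ratio above 0, the median was 0.325, 15 of 27 were highest in the combination (10.2% of all genes in macrophages were, and 9 members under stricter gates or 5 after thinning before the gates), and Ifit1, at 1.06, was past the fold. In dendritic cells 21 of 26 were above 0, the median was 0.392 and 10 of 26 were highest in the combination (13.8% of all genes were, and 4 members after thinning past the gates), with Isg15 at 1.02 and Rtp4, an interferon-induced chaperone gene, at 1.02. T cells of the pair had a median of 0.177 over the same list. Whether the classes differ from each other was not tested. The list was also higher in other pairs of mice. The median for 2FF over control in monocytes was 1.04, from 2 further mice, beside 0.158 for all genes. Control was the lowest library for the summed list there, at 1838 CPM against 3653 in 2FF and 3479 in anti-PD-L1. A high value over control was therefore not particular to 2FF. The median for 2DG plus anti-PD-L1 relative to anti-PD-L1, which shares the anti-PD-L1 library, was 0.336. Interferon-gamma targets, many of them in antigen presentation, had medians of 0.296 in monocytes, 0.0228 in macrophages and 0.0767 in dendritic cells, and for 3 of 26 in monocytes the combination was the highest library, near the 8.91% of all genes.

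The promoters of this list were read because interferon-activated transcription factors bind the interferon-stimulated response element, here searched on both strands as GAAA, any 2 bases and GAAA. The window ran from 250 bases before to 50 bases after each RefSeq gene start (GRCm38.p6). It held the motif for 13 of the 23 members with a promoter entry (56.5%), against 3.99% of 27025 genes with an entry, or 3.44% of 32851 single promoters. It was as frequent among interferon-gamma targets, at 11 of 19 (57.9%), and was found for 2 of 19 chemokine genes and 1 of 11 MHC class II genes. Of the 5 genes past the fold in monocytes, Isg15, Ifit1 and Rsad2 held it. The nearest 10 bases on each side are shown on the strand of the gene, with the motif or its reverse complement in capitals.
Isg15, chr4:156200877-156200906, minus strand: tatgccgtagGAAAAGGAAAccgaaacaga
Ifit1, chr19:34640794-34640823, plus strand: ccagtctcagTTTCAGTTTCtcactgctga
Rsad2, chr12:26456553-26456582, minus strand: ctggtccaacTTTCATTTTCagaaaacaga
The motif began 78 bases before the start of Isg15, 85 before that of Ifit1 and 120 before that of Rsad2. Isg15 and Ifit1 held further matches in the window, and Ifit2 and Oasl1 held none. Members with the motif did not have the larger ratios. Their median in monocytes was 0.45 over 13 genes, against 0.64 over 10 genes whose window lacked it and 0.55 over 5 genes without an entry.

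Chemokine genes, among them ligands of the monocyte receptor CCR2, were mostly higher with the combination in monocytes. There 15 of 19 list members described had a ratio above 0, 6 were past the fold and higher (0.52% of all genes were), 1 was lower and the median ratio was 0.701 (0.145 with no minimum above 1 UMI, which adds members with few counts), and in macrophages it was 0.449 (0.0682 likewise). Ccl2, the main CCR2 ligand, stood in monocytes at 1414 CPM in control, 223 in 2DG, 477 in 2FF, 235 in anti-PD-L1, 499 in 2DG plus anti-PD-L1 and 758 in the combination. Control was the highest library and 2DG and anti-PD-L1 the lowest, so that the combination, with a log2 ratio of 1.67, lay within the range of the 6. In macrophages Ccl2 stood at 885 CPM in control, 313 in 2DG, 383 in 2FF, 250 in anti-PD-L1, 451 in 2DG plus anti-PD-L1 and 768 in the combination, with control again the highest and anti-PD-L1 the lowest. The log2 ratio there was 1.60. In dendritic cells, where it was low, it stood at 19.9 CPM with anti-PD-L1 and 53.3 CPM with the combination.

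The combination was the highest of the 6 libraries for 3 of the 19, Ccl4, Ccl8 and Ccl12, against 8.91% of all genes. Ccl4, an inflammatory chemokine, stood in monocytes at 544 CPM in control, 272 in 2DG, 671 in 2FF, 378 in anti-PD-L1, 989.9 in 2DG plus anti-PD-L1 and 1060 in the combination, with the combination and 2DG plus anti-PD-L1 the highest libraries and a log2 ratio of 1.48. The ratio was 1.18 in macrophages and 1.77 in dendritic cells. Ccl7 and Ccl12, further CCR2 ligands, and Cxcl1, which draws neutrophils, had ratios of 1.55, 1.16 and 1.30 in monocytes. In macrophages Ccl7 was at 1.02 and Cxcl1 at 1.06.

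Ccl8, a further chemokine of this family, had the highest ratio of all named genes in monocytes, 2.34. It stood at 3.79 CPM in control, 18.1 in 2DG, 63.1 in 2FF, 17.2 in anti-PD-L1, 49.4 in 2DG plus anti-PD-L1 and 108 in the combination, with the combination the highest and control the lowest. The value rested on few cells, 89 of 911 monocytes with the combination and 44 of 1067 with anti-PD-L1, and a single cell gave 194 of the 833 UMIs. Its share of cells with a UMI, 9.77% of monocytes against 5.46% of B cells in the combination library, was little above the level of free RNA. Ccl24 in dendritic cells, at 2.75, rested on 4 cells with the combination, and is given as a value only.

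Ccl17, a ligand of CCR4 made by dendritic cells, went the other way in all 3 classes. In dendritic cells it stood at 728 CPM in control, 467 in 2DG, 271 in 2FF, 609.8 in anti-PD-L1, 143 in 2DG plus anti-PD-L1 and 147 in the combination, a log2 ratio of -2.02. The combination and 2DG plus anti-PD-L1 were the lowest libraries, and control and anti-PD-L1 the highest. It was detected in 32 of 177 dendritic cells with the combination and 71 of 240 with anti-PD-L1. In monocytes and macrophages, where few cells held a UMI, the ratios were -2.41 and -1.27. Ppbp in macrophages and Pf4 in dendritic cells, both platelet chemokine genes, were lower as well, but came from at most 4 cells in either library.

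Genes listed as suppressor enzymes of myeloid cells were also mostly higher in monocytes and macrophages. Whether they restrained T cells was not measured, and Arg1 was not past the fold in either class. Of the suppressor enzyme list, 4 of 17 described members were past the fold and higher in monocytes and 5 of 18 in macrophages, with none lower, against 0.52% and 0.431% of all genes. The medians were 0.48 and 0.395, the latter 0.259 when macrophage subsets were weighted equally in both libraries. The combination was the highest library for 2 members in each class, beside 8.91% and 10.2% of all genes. Anti-PD-L1 was the lowest for 3 of 17 and 7 of 18, beside 9.22% and 11.7% of all genes. Cd38, an enzyme that consumes NAD, stood in monocytes at 229 CPM in control, 86.4 in 2DG, 225 in 2FF, 59 in anti-PD-L1, 150.4 in 2DG plus anti-PD-L1 and 204 in the combination, where the combination, 2FF and control were close together and anti-PD-L1 was the lowest. Its ratio was 1.71 in monocytes and 1.02 in dendritic cells, and in macrophages it was just past the fold, at 131 CPM with anti-PD-L1 and 268 CPM with the combination. Ptgs2, which makes prostaglandin precursors, stood in macrophages at 378 CPM in control, 90.7 in 2DG, 119.9 in 2FF, 90.4 in anti-PD-L1, 212 in 2DG plus anti-PD-L1 and 248 in the combination, with control the highest. Its ratios were 1.16, 1.41 and 1.49 in the 3 classes.

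Nos2, the inducible nitric oxide synthase, had a ratio of 1.43 in monocytes and stood at 495 CPM in control, 114 in 2DG, 241 in 2FF, 103 in anti-PD-L1, 157 in 2DG plus anti-PD-L1 and 287 in the combination. Control was the highest library, and anti-PD-L1 and 2DG were the lowest. Slc7a11, a cystine importer, had ratios of 1.42 in monocytes and 1.37 in macrophages. Chil3, a chitinase-like protein of monocytes and macrophages, had a ratio of 1.64 in macrophages, where it stood at 533 CPM in control, 85.9 in 2DG, 115 in 2FF, 75.8 in anti-PD-L1, 147 in 2DG plus anti-PD-L1 and 246 in the combination and was again highest in control and lowest with anti-PD-L1. Retnla, a gene of alternative activation, was at 1.59 in macrophages but in 9 cells of each library. In dendritic cells Arg1 and Acod1 were lower, at -2.37 and -1.71, and both were under 20% of the level in another class, so that free RNA could give part of the counts. Arg1 was detected in 24 dendritic cells with the combination (13.6%) and 19 with anti-PD-L1 (7.92%). At an equal 2000 UMIs these shares were close, at 4.08% and 4.33%. A single cell with anti-PD-L1 held 159 Arg1 UMIs, against 26 in the top cell of the combination.

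Other cytokine and stress genes were past the fold and higher. In monocytes Saa3, an acute phase protein, stood at 393 CPM in control, 32.8 in 2DG, 293 in 2FF, 41.6 in anti-PD-L1, 147 in 2DG plus anti-PD-L1 and 175 in the combination, a ratio of 1.95, with control the highest and 2DG and anti-PD-L1 the lowest. Il6 was at 1.08 and Mmp13, a collagenase, at 1.14 in monocytes. Osm, a cytokine of the interleukin 6 family, was at 1.04 in macrophages, and Irgm1, an interferon-induced GTPase, at 1.03 there and 1.05 in dendritic cells. In macrophages Nr4a1, an immediate early nuclear receptor, was at 1.62, Ch25h, which makes 25-hydroxycholesterol, at 1.68 and Gm15056, a gene model, at 1.74. Ch25h stood at 8.24 CPM in control, 13.3 in 2DG, 19.3 in 2FF, 9.74 in anti-PD-L1, 27.6 in 2DG plus anti-PD-L1 and 42.2 in the combination, and the combination was the highest library. The immediate early and dissociation list tracks handling of cells and holds Zfp36 and Nr4a1. Its medians were 0.25 in monocytes, 0.24 in macrophages, 0.303 in dendritic cells and 0.311 in T cells. Anti-PD-L1 was the lowest library for 3 of 24, 10 of 24 and 5 of 23 members in the 3 classes. Over all genes this held for 9.22%, 11.7% and 11.3%. The combination was the highest for 5, 0 and 3 members, beside 8.91%, 10.2% and 13.8% of all genes. The part of handling in these values was not tested.

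Genes past the fold in the same direction in all 3 classes numbered 13 higher (0.171% of the 7616 genes described in all 3) and 5 lower (0.0657%). The higher ones were H2-T23, Cd38, Ccl2, Zfp36, Ccl4, Ost4, Ell2, Snhg6, Sdhd, Ptgs2, Cebpb, Cd14 and BC028528, and the lower ones Il31ra, Ear2, Gm48099, Slc15a2 and Ccl17. Their ratios ran from 1.08 to 1.75 in monocytes for the higher genes and from -2.41 to -1.06 for the lower ones. In macrophages the anti-PD-L1 library was the lowest of the 6 for all 13 higher genes, and in monocytes and dendritic cells for 8 and 6 of them, while the combination was the highest for 6, 4 and 5 in monocytes, macrophages and dendritic cells. Over all genes of these classes anti-PD-L1 was the lowest for 9.22%, 11.7% and 11.3%, and the combination the highest for 8.91%, 10.2% and 13.8%. The 13 genes were chosen for a ratio between these libraries, which favors such places. In dendritic cells Ccl2, Ccl4, Ptgs2, Cebpb and Cd14 lay under 20% of their level in another class, where free RNA could give the counts, and so did Ccl17 in monocytes and macrophages. Several genes had the same direction in T cells of the pair, which were gated apart. Zfp36, which degrades cytokine mRNA, stood in monocytes at 896 CPM in control, 645 in 2DG, 1074 in 2FF, 446 in anti-PD-L1, 1142 in 2DG plus anti-PD-L1 and 1321 in the combination, with anti-PD-L1 the lowest library and the combination the highest. Its ratios were 1.55, 1.87 and 1.74 in monocytes, macrophages and dendritic cells and 1.28 in T cells.

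H2-T23, the gene of the nonclassical molecule Qa-1, stood in monocytes at 108 CPM in control, 74.3 in 2DG, 156 in 2FF, 58.4 in anti-PD-L1, 179 in 2DG plus anti-PD-L1 and 208 in the combination and had a ratio of 1.75, against 1.60 in T cells. It has close copies in the MHC, between which reads may be split, so that its level is uncertain. Ost4, of the oligosaccharyltransferase, Snhg6, a small nucleolar RNA host, and Sdhd, of succinate dehydrogenase, had T cell ratios of 1.07, 1.41 and 1.04. Slc15a2, a peptide transporter, and Gm48099, a gene model, had T cell ratios of -1.57 and -1.37. These genes therefore differed between the libraries outside the myeloid cells too.

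Cd38 and Ptgs2, also of the group, had small ratios in T cells. Cd38 was at -0.07 and Ptgs2 at -0.03 there. Ptgs2 was detected in only 1.05% of T cells with anti-PD-L1 and 1.89% with the combination, so that its T cell ratio says little. Cd14, the co-receptor for lipopolysaccharide, stood in monocytes at 808 CPM in control, 288 in 2DG, 463 in 2FF, 303 in anti-PD-L1, 584 in 2DG plus anti-PD-L1 and 658 in the combination, and in macrophages at 551 CPM in control, 325 in 2DG, 501 in 2FF, 269.5 in anti-PD-L1, 617 in 2DG plus anti-PD-L1 and 593 in the combination, with ratios of 1.10 and 1.12. Control was the highest library in monocytes and 2DG plus anti-PD-L1 in macrophages, and the combination was the next in both. Cebpb, a transcription factor of inflammatory macrophages, had ratios of 1.14, 1.36 and 1.47. Ear2, of the eosinophil ribonuclease family and expressed by non-classical monocytes, had ratios of -1.27 in monocytes, -1.37 in macrophages and -1.44 in dendritic cells.

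Slc15a2 in monocytes stood at 47.6 CPM in control, 17.7 in 2DG, 41.7 in 2FF, 64.2 in anti-PD-L1, 9.09 in 2DG plus anti-PD-L1 and 12.1 in the combination. The combination, 2DG plus anti-PD-L1 and 2DG were all low, and control, 2FF and anti-PD-L1 were high. Whether the antibody or 2FF had a part in this order was not tested. In macrophages it stood at 55.7 CPM in control, 12.4 in 2DG, 44.4 in 2FF, 46.8 in anti-PD-L1, 13.9 in 2DG plus anti-PD-L1 and 7.58 in the combination, with the combination the lowest. Il31ra, a receptor chain for interleukin 31, was at -1.06, -1.27 and -1.14 in the 3 classes and at -1.16 in T cells. With anti-PD-L1 it was detected in 71.8% of monocytes, 75.3% of macrophages, 72.9% of dendritic cells, 75.7% of T cells and 72.4% of B cells. The 20% limit cannot mark free RNA of a gene so even across classes, and the source of its counts was not tested. In T cells Ccl17 was at -1.93. The Ccl17 value rested on few T cells, 31 of 2561 with anti-PD-L1 and 11 of 1849 with the combination. A single cell with anti-PD-L1 held 138 UMIs.

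**Figure D3:**
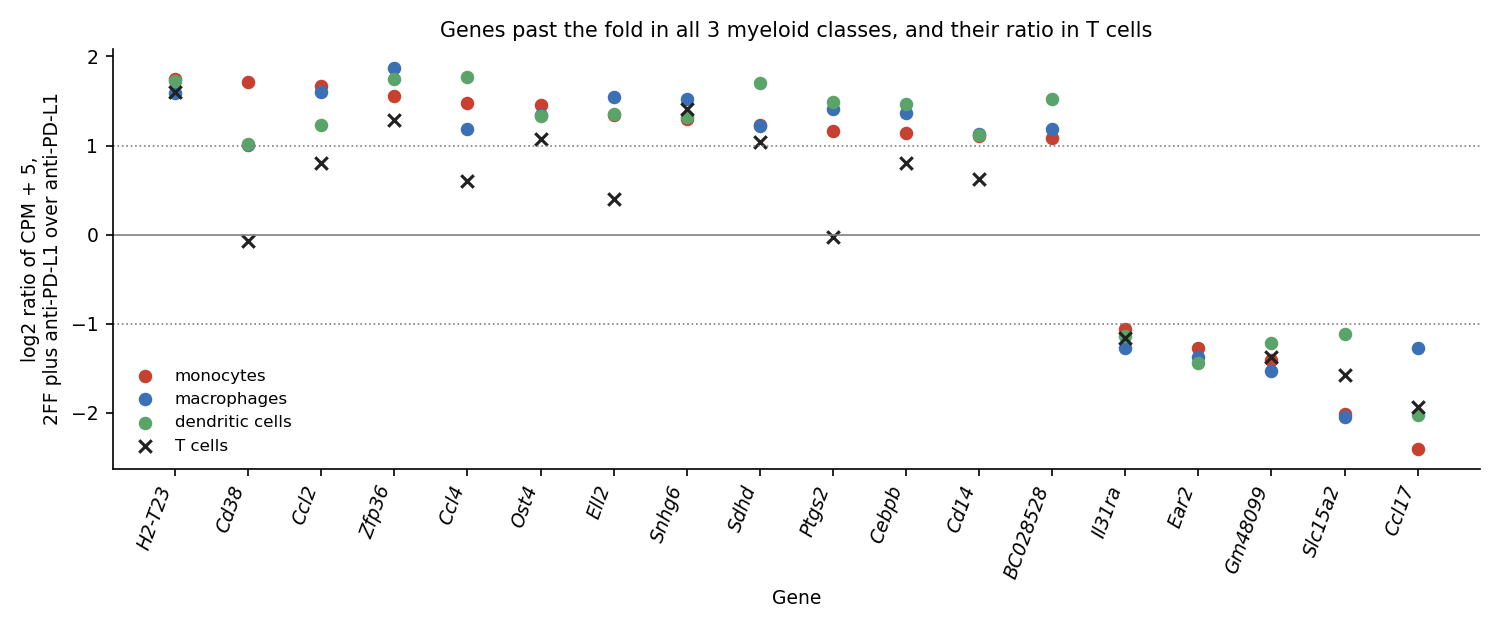
The vertical axis gives the log2 ratio of CPM + 5, the combination over anti-PD-L1, for each gene past the fold in all 3 myeloid classes, with 1 point for each class and a cross for T cells where at least 50 UMIs were counted. The T cell value lies near 0 for Cd38 and for Ptgs2, which few T cells held, and at 1.28 for Zfp36 and -1.57 for Slc15a2.

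MHC class II genes, which present antigen to CD4+ T cells, were lower in macrophages without any being past the fold. Of 13 described members 3 had a ratio above 0, beside 40.5% of all genes, and the median was -0.51, beside -0.06 for all genes. Within the Spp1, Gpnmb or Arg1 subset the median was -0.424, and within other macrophages -0.368, over 12 genes each. The combination was the lowest library for 0 of the 13, beside 12% of all genes. Anti-PD-L1 was the highest for 4, beside 24.4% of all genes. H2-Ab1, a class II chain, stood in macrophages at 1566 CPM in control, 3998 in 2DG, 4537 in 2FF, 4278 in anti-PD-L1, 4403 in 2DG plus anti-PD-L1 and 2966 in the combination, a log2 ratio of -0.53. Control was by far the lowest library, and the combination was below the other 4. Ciita, the switch gene of the class II program, named after its values were seen, was at -0.92. Per macrophage at 2000 UMIs, the list had a median of 52 UMIs with anti-PD-L1 and 39 with the combination, against 16 in control and 52 to 59 in the other 3. In monocytes the median log2 ratio was -0.326, with 3 of 13 above 0 (37.4% of all genes were), although the median per cell was 10 UMIs with anti-PD-L1 and 12 with the combination. In dendritic cells the median ratio was -0.124. In T cells of the pair it was -0.44, but free RNA from other cells could give those counts, and this was not tested.

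Apoe, named after its values were seen, stood in macrophages at 3188 CPM in control, 3067 in 2DG, 2972 in 2FF, 3568 in anti-PD-L1, 3052 in 2DG plus anti-PD-L1 and 1791 in the combination. The combination was below all 5 other libraries and anti-PD-L1 above all 5, the log2 ratio was -0.99, and the counting interval with no CPM added was -1.03 to -0.96. In monocytes Apoe stood at 926 CPM with anti-PD-L1 and 587 CPM with the combination, and the combination was again the lowest library. Axl, a receptor for dying cells, was at -0.96 in macrophages, also named after its values were seen. The lipid handling list as a whole had a median of -0.152 in macrophages, with 5 of 29 members lowest in the combination, against 12% of all genes in macrophages.

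The 5 lowest named genes in macrophages included Mgl2, a C-type lectin of alternatively activated macrophages and type 2 dendritic cells, at 229.9 CPM in control, 179 in 2DG, 135 in 2FF, 288 in anti-PD-L1, 66.2 in 2DG plus anti-PD-L1 and 93.8 in the combination. Anti-PD-L1 was the highest library, and the combination and 2DG plus anti-PD-L1 were the lowest, with a combination ratio of -1.57. Dcstamp, a gene for cell fusion, was at -1.82, with a UMI in 14 and 35 macrophages, the combination first. Ksr2, a kinase scaffold, was at -1.46, Irf4, a transcription factor of type 2 dendritic cells, at -1.02, and Siglece, an inhibitory receptor for sialic acid, at -1.03. In monocytes Irf4 and Mgl2 were at -1.28 and -1.22, and the type 2 dendritic cell list had a median of -0.33 over 15 genes, or -0.0636 when cells were thinned after the gates.

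Among the lowest in monocytes was Lpl, lipoprotein lipase, at 24.9 CPM in control, 26.7 in 2DG, 7.43 in 2FF, 26.6 in anti-PD-L1, 23.3 in 2DG plus anti-PD-L1 and 6.59 in the combination. The combination was the lowest library, 2FF was nearly as low, and the other 4 lay close together, with a ratio of -1.45 for the combination over anti-PD-L1 and -1.27 for 2FF over control, which uses other mice. Flt1, a receptor for vascular growth factor, was at -1.29, with the lowest level in control. In all, 13.4% of genes in monocytes, 12% in macrophages and 14.6% in dendritic cells were lowest in the combination.

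**Figure D4:**
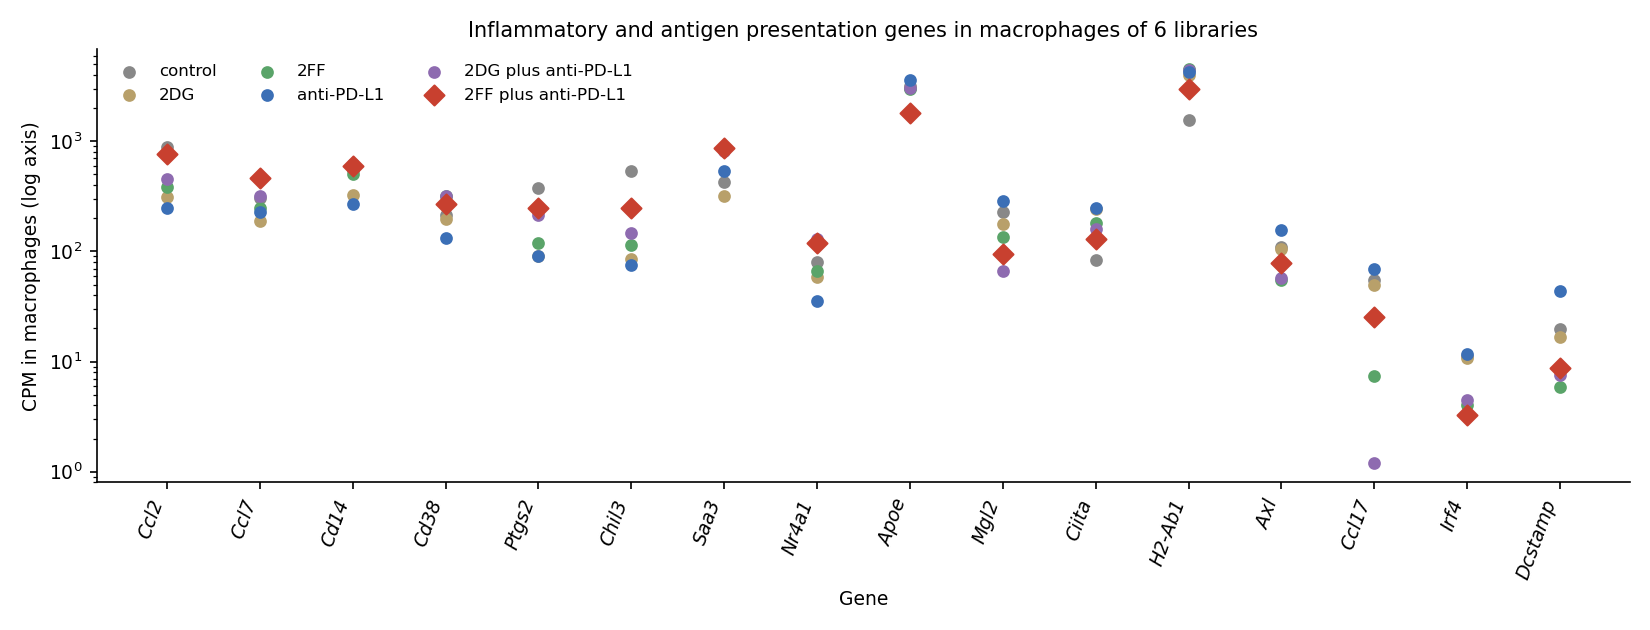
The vertical log axis gives CPM in macrophages for 16 genes, chosen after their values were seen, with 1 point for each of the 6 libraries and a diamond for 2FF plus anti-PD-L1. For Ccl2, Chil3 and Nr4a1 the anti-PD-L1 point is the lowest of the 6, and for Apoe it is the highest and the diamond the lowest.

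In dendritic cells the cell cycle genes were lower as a group. Of 27 described members 25 had a ratio below 0, the median was -0.473, and the combination was the lowest library for 14 of 27, against 14.6% of all genes. Top2a, a DNA topoisomerase, was at -1.02, Prc1, of the spindle midzone, at -1.27 and Kif11, a spindle motor, at -1.12. Top2a stood at 107 CPM in control, 157 in 2DG, 81.7 in 2FF, 101 in anti-PD-L1, 70.9 in 2DG plus anti-PD-L1 and 47.1 in the combination, the combination and 2DG plus anti-PD-L1 being the lowest. Without the 5% of cells with the most UMIs the median was -0.233. The type 1 dendritic cell list had a median of -0.301 over all dendritic cells, and of -0.138 within the 28 and 39 type 1 cells. In macrophages the cell cycle median was 0.0568 and in monocytes 0.0871.

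Further dendritic cell genes past the fold were spread over many functions. Sdhd was at 1.71, and Selp, an adhesion molecule gene of platelets and endothelium, at 1.47 from 15 cells. Lower were Hist1h3c at -1.96, Hist1h2ap at -1.65, both histone genes of dividing cells, and Ppargc1b, a coactivator of mitochondrial genes, at -1.65. Fn1 and Thbs1, matrix proteins of monocytes and macrophages, were at -1.39 and -1.40. Tnf was at -1.17, the glycan-capping sialyltransferase gene St6gal1 at -1.47 and Cadm1, an adhesion gene of type 1 dendritic cells, at -1.52. The dendritic cell maturation list had a median of 0.00676 over 29 genes.

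The genes that make and place fucose did not differ past the fold in any class. Of 19 in the list, 13 were described in monocytes, 12 in macrophages and 9 in dendritic cells, with medians of -0.22, 0.00 and 0.03. In monocytes, however, 11 of the 13 had a ratio below 0 (37.4% of all genes were above 0). The combination was the lowest library for 5, against 13.4% of all genes, and anti-PD-L1 was the highest for 5, against 18.9% of all genes. Fut8, which adds the core fucose of N-glycans, stood in macrophages at 47.5 CPM in control, 42.5 in 2DG, 59.4 in 2FF, 56 in anti-PD-L1, 51.9 in 2DG plus anti-PD-L1 and 50.3 in the combination, a span in which the combination and anti-PD-L1 differed by -0.14 on the log2 scale. Gmds, the first enzyme of GDP-fucose synthesis, was at -0.43 in monocytes and -0.16 in macrophages. Slc35c2, a Golgi transporter linked to fucosylation of Notch, stood in monocytes at 29.6 CPM in control, 33 in 2DG, 28.5 in 2FF, 34 in anti-PD-L1, 23 in 2DG plus anti-PD-L1 and 21.6 in the combination, where the combination was the lowest library, with a ratio of -0.55, and at 0.02 in macrophages. Fut4, which makes Lewis X, was at -0.25 in monocytes. The files hold RNA only, so the sugars themselves were not measured.

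Notch receptors carry O-linked fucose. Of their list, Hes1, a target gene, was past the fold, in macrophages, at 8.05 CPM in control, 3.8 in 2DG, 3.47 in 2FF, 4.52 in anti-PD-L1, 9.96 in 2DG plus anti-PD-L1 and 15.2 in the combination, with a ratio of 1.08. The combination was the highest library, but Hes1 was at -0.03 in monocytes. Notch2 and Rbpj, a receptor and the DNA-binding partner of Notch, were at -0.74 and -0.78 in dendritic cells and at -0.05 and -0.17 in macrophages. Pofut1, which places the O-linked fucose, was at -0.29, -0.34 and 0.16 in monocytes, macrophages and dendritic cells.

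No checkpoint gene was past the fold. Cd274, the gene of PD-L1, stood in monocytes at 445 CPM in control, 500.3 in 2DG, 729 in 2FF, 459 in anti-PD-L1, 617 in 2DG plus anti-PD-L1 and 759 in the combination, with the combination the highest library and a ratio of 0.72. Its ratios were 0.52 in macrophages and 0.53 in dendritic cells. Monocytes with a Cd274 UMI were 65.8% with anti-PD-L1 and 84.7% with the combination, or 43.2% and 60.4% at an equal 2000 UMIs. B cells of the same libraries, which can express the gene, held one in 60.3% and 70.5%, or 39.7% and 44.5% at 2000 UMIs, so that they give no measure of free RNA here. Tnfsf9, the ligand of 4-1BB, was at 0.92 in monocytes, from 17.8 to 38 CPM. Icosl, a costimulatory ligand, was at -0.67, and Cd86, Cd80 and Pdcd1lg2 were at 0.27, 0.14 and 0.35 in monocytes.

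**Figure D5:**
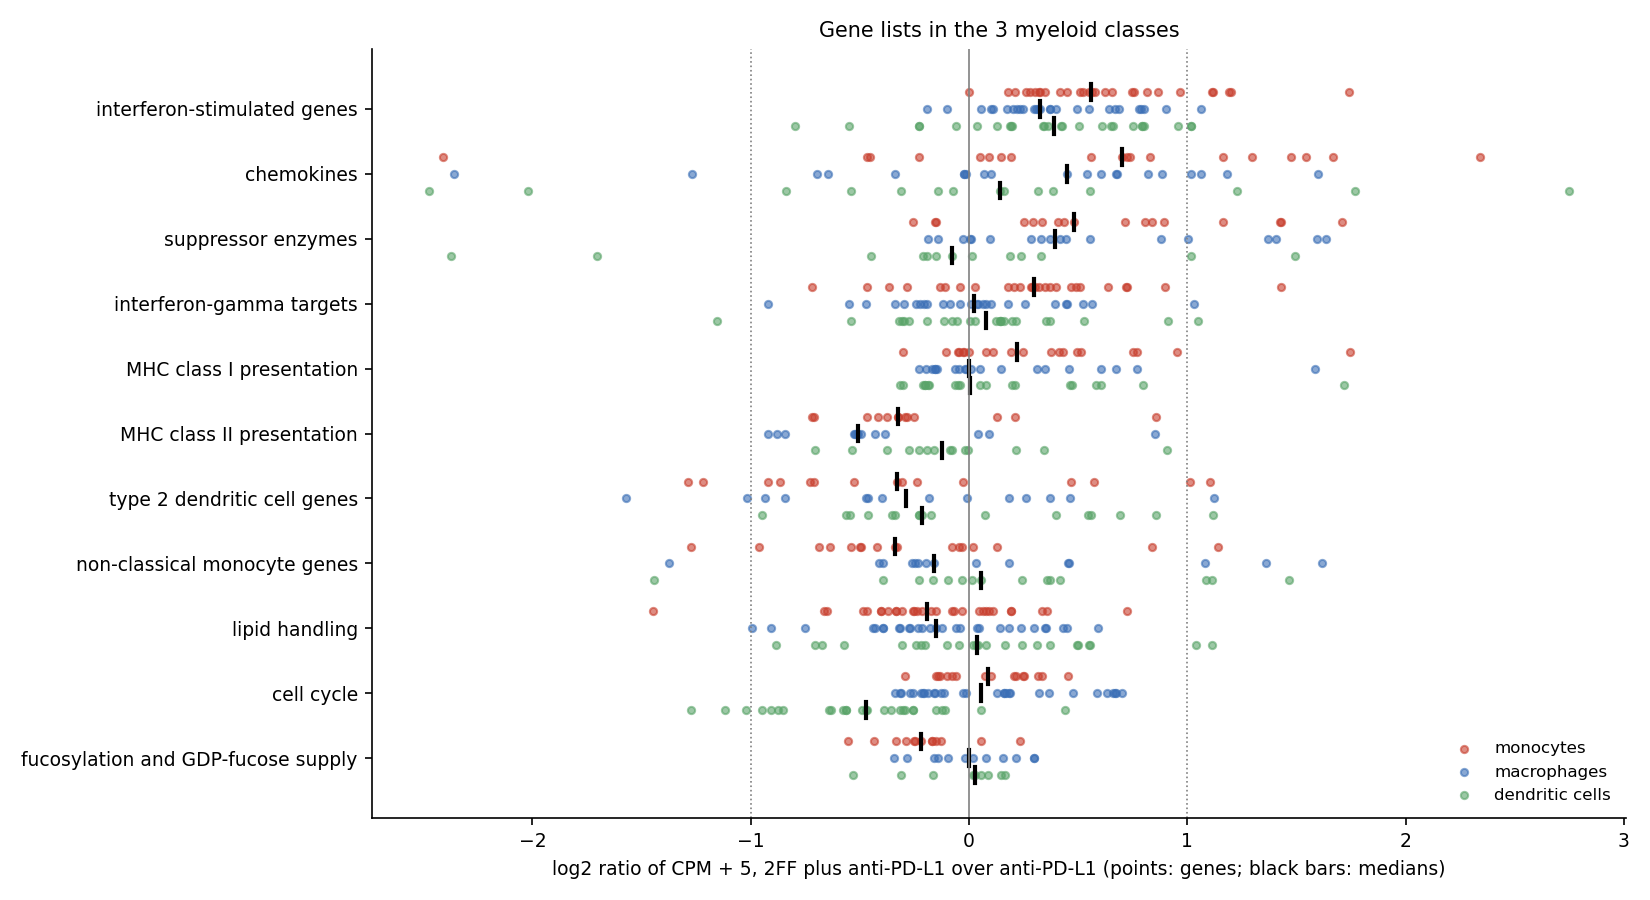
Each point is a gene of 1 of 11 lists, placed by its log2 ratio of CPM + 5, the combination over anti-PD-L1, with a color for each of the 3 classes and a black bar at the median. In monocytes the medians are 0.557 for interferon-stimulated genes and 0.701 for chemokines, and in macrophages that of MHC class II is -0.51.

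2DG plus anti-PD-L1 was read beside the combination for the same genes, on the same anti-PD-L1 library. For Isg15 in monocytes the ratio was 0.80 with 2DG and 1.12 with 2FF, for Ccl2 1.07 and 1.67, for Zfp36 1.35 and 1.55, and for Slc15a2 -2.29 and -2.01. For Apoe in macrophages it was -0.22 with 2DG and -0.99 with 2FF, and for the MHC class II list in macrophages the medians were 0.0416 and -0.51. With 1 mouse in each group, a difference between 2DG and 2FF cannot be told apart from a difference between mice.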

How the data were processed

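The values that the authors deposited are UMI counts, not normalized, for each of 32285 genes in each cell barcode. The file headers and the study's methods name Cell Ranger 7.0.0 and the mm10 reference, and the submitters' processing notes name Cell Ranger 3.1.0. Limits of 250 genes and 5% mitochondrial UMIs were applied here. Libraries were mapped by the treatment label, and all 6 had a file.

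Classes were set by summed marker UMIs per cell, with at least 5 for C1q genes in macrophages, at least 5 for classical and 3 for non-classical monocyte genes, and at least 3 to 5 for dendritic cell genes. All dendritic cells and monocytes had at most 2 UMIs of C1q genes, and macrophages and monocytes passed no dendritic cell gate. Non-classical monocytes held more UMIs of their genes than of Ly6c2. The Spp1, Gpnmb or Arg1 subset held at least 5 UMIs of these genes, and more than of Folr2, Lyve1 and Selenop. UMIs were summed per class and library and scaled to counts per 1000000 (CPM), so that each gene is relative to the others in its class. Genes with at least 50 UMIs over both libraries were described by the log2 ratio of CPM + 5. With 1 library in each group no test was made. CPM ratios carry exact Poisson and shares exact Clopper-Pearson 95% intervals, which cover counting error only. A count of 0 allows up to 3 counts as a 1-sided 95% bound, and somewhat more by the 2-sided intervals used here. No doublet caller was run, since cells with T, B, NK or neutrophil markers were left out, and the 5% of cells with the most UMIs were left out in an alternative.

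The members, 46 gene lists and gates were chosen with earlier results of these data known. Named are the genes at the ends of the ratio scale in each class, 5 at the top and 5 at the bottom, seen in at least 10 cells and 5% of cells of the higher library and at 20% or more of the level in other classes, list members past the fold, genes past the fold in all 3 classes, and members of the fucosylation, Notch and checkpoint lists. Mitochondrial, ribosomal, immunoglobulin, T cell receptor, haemoglobin, sex-linked and gate genes were left out of the first. Gene positions are from GENCODE M21 and promoters from RefSeq. Python 3.11.15 with numpy 2.4.6, scipy 1.17.1 and pandas 2.3.3 was used. The ratios and their counting intervals, but not the gates, thinning, shares or lists, were tried on simulated Poisson counts. Such counts leave out the clumping of UMIs in single cells, so that intervals on the real data may be too narrow. The alternatives were 1 or 20 CPM added, other count minimums, centring, stricter gates, up to 10% mitochondrial UMIs, equal subset weights, means over cells and thinning to 2000 UMIs before the gates. Thinning after the gates was chosen after seeing the data.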

Additional observations from a re-analysis of the deposited data

Results flagged for a closer look

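In 9 cases, each a gene list in 1 class, the median ratio of the combination over anti-PD-L1 and that of 2FF over control, from 2 other mice, lay on opposite sides of 0, each at 0.3 or more in size over at least 10 genes. The size of 0.3 was chosen after the values were seen, the difference between the ratios was not tested, and the control library stood apart in its neutrophils and T cells. MHC class II genes had a median of -0.326 in monocytes and -0.51 in macrophages with the combination, against 1.19 and 1.23 for 2FF over control. Non-classical monocyte genes in monocytes were at -0.337 against 1.16. Tumor macrophage genes in monocytes were at 0.333 against -1.27. Chemokines were at 0.701 against -0.837 in monocytes and at 0.449 against -0.652 in macrophages. Suppressor enzymes in monocytes were at 0.48 against -0.846, and matrix remodelling genes in macrophages at 0.416 against -0.625. Immediate early and dissociation genes in dendritic cells were at 0.303 against -0.32. By summed CPM, control was the lowest library for MHC class II genes in both classes and for non-classical monocyte genes. It was the highest for tumor macrophage genes, chemokines and suppressor enzymes in monocytes and matrix remodelling genes in macrophages. Only for chemokines in macrophages and the dendritic cell list did it lie within the range. The part of control in the opposite signs was not tested. The pairs differed in anti-PD-L1 as well as in mice, and with 1 mouse in each group these cannot be told apart.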

How the results depend on the processing

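No paired analysis was possible because each group held 1 library, and for the same reason no replicate could be left out. Over 12 alternative settings, 235 of 297 recomputed values and counts stayed within 1.5 times the value given (counts and medians) or inside its 95% interval (shares). Of 1386 recomputed ratios of named genes 1243 stayed past the fold, 143 fell short of it and 0 turned direction. By construction no ratio could fall short with 1 CPM added (129 ratios), no minimum above 1 UMI (129) or at least 200 UMIs (94). With 20 CPM added 63 of 129 fell short. Thinning before the gates left only 60 ratios to recompute, of which 9 fell short. The medians of interferon-stimulated genes, chemokines, suppressor enzymes and MHC class II genes in monocytes and macrophages kept their sign under each setting. With no minimum above 1 UMI, however, the chemokine median was 0.145 in monocytes and 0.0682 in macrophages, and with subsets weighted equally the suppressor enzyme median in macrophages was 0.259. Thinning past the gates gave 0.793 for suppressor enzymes in monocytes and 0.503 for interferon-stimulated genes in macrophages. The median of type 2 dendritic cell genes in monocytes was -0.13 after thinning before the gates and -0.0636 after thinning past them. The number of genes past the fold depended on the CPM added. With 1 CPM it was 87 higher and 107 lower in monocytes, 85 and 90 in macrophages, and 155 lower in dendritic cells, and with 20 CPM it was 23 and 5, 17 and 7, and 17 and 18 in the 3 classes. With at least 200 UMIs it was 16 lower in monocytes, 14 lower in macrophages, and 28 higher and 19 lower in dendritic cells, as fewer genes were described. Centred on the median of all genes it was 18 lower in monocytes. In dendritic cells thinning before the gates, which left 33 cells with anti-PD-L1 and 21 with the combination, gave 13 higher and 4 lower. Thinning after the gates gave 31 lower there. Interferon-stimulated genes highest in the combination were 9 in macrophages under stricter gates and 5 after thinning before the gates, and in dendritic cells 4 after thinning past the gates, where the median was 0.709. The cell cycle median in dendritic cells was -0.233 without the 5% of cells with the most UMIs and -0.272 after thinning past the gates. Shares moved with the gates and the depth. Under stricter gates, combination first, macrophages were 31.9% and 26.2%, monocytes 42.8% and 39.9%, dendritic cells 8.01% and 8.37%, cells of no class 17.2% and 25.6%, Spp1, Gpnmb or Arg1 macrophages 75.1% and 62.5%, and non-classical monocytes 10.5% and 11.5%. After thinning before the gates they were 25.1% and 23.3%, 54.8% and 47%, 1.19% and 1.44%, 19% and 28.3%, 57.2% and 41.5%, and 5.91% and 9.41%. After thinning past the gates Spp1, Gpnmb or Arg1 macrophages were 83.8% and 72.5%, and with anti-PD-L1 monocytes were 51.6% and cells of no class 8.66%. Without the 5% of cells with the most UMIs, monocytes with anti-PD-L1 were 51.6% and dendritic cells 9.64%. Where no construction shows it, the cause was not tested. After thinning before the gates the cell cycle list in dendritic cells gave no value.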
